A study of Mus musculus with 11 samples.

Results

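The 6 arrays of cancer-associated fibroblasts (CAFs) in the series, 3 from carcinoma and 3 from advanced carcinoma, were set against its other 5, 2 from normal mammary glands and 3 from hyperplasia, and the genes that kept these groups apart without any overlap were described. The 6 CAF arrays were chosen by their labels alone, and the 2 groups make up all 11 arrays of the series. Normal fibroblasts came from FVB/n mice at 8 weeks of age. Hyperplasia (4 weeks), carcinoma (9 weeks) and advanced carcinoma (12 weeks, labelled Late carcinoma) came from MMTV-PyMT mice, whose polyoma middle T oncogene is driven in the mammary epithelium by a viral promoter, so the hyperplasia arrays carry the transgene while the normal arrays do not. All mice were female, and each array was hybridised with cDNA of fresh, uncultured cells from 1 cohort of mice. Cells were sorted as positive for CD140a (PDGFRα) and negative for F4/80, and the labels add negative for EpCAM, so fibroblasts without CD140a were not sampled. Age goes with stage, and the effect of age and of the tumour cannot be told apart.

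Fibroblasts build and remodel the extracellular matrix of the mammary gland, and they send growth factors to its ducts. In tumours the resident fibroblasts are reprogrammed and other cells join them, and the resulting CAFs are known for matrix remodelling, for inflammatory signalling and for growth factors that act on the carcinoma cells. A sorted population is also never free of RNA from its neighbours, which in this gland are mainly milk-forming luminal cells, contractile basal cells, macrophages, lymphocytes and adipocytes.

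The values are log2 expression on Affymetrix mouse gene arrays, so a difference of 1 is a 2-fold change. Of 19938 genes tested with limma, 2402 (12%) were higher in CAFs and 2559 (12.8%) lower at an adjusted p under 0.05. A gene was called separated when every CAF array lay above, or every CAF array below, all 5 other arrays. This held for 1549 genes higher in CAFs (7.77%) and 1424 lower (7.14%). Array medians lay between 5.28 and 5.39. With each array centred on its median, which lowers every difference by 0.09, 1948 genes were higher and 5114 lower, so the split moved from 48.4% to 27.6% higher and small falls depend on the scaling. The labels name no batch.

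Some libraries stand apart. Normal D2 and advanced carcinoma D11 were tied. In each probe set their average equalled the average of the remaining 9 arrays, with their sum off by at most 0.000144, so the 11 arrays hold 10 independent columns, and no source names a step that does this. With a term for the tied arrays 2089 genes were higher and 1961 lower, all of them among those above, and without both arrays 1896 and 1835. Carcinoma D4 had the lowest mean of 15 fibroblast markers, 9.17 against 10.45 to 10.72 in the other CAF arrays and 10.55 to 10.97 in normal and hyperplasia arrays. Pdgfra, the sorted antigen's gene, lay at 9.21 in D4 and at 10.50 to 11.01 in the other CAF arrays. Epcam and Adgre1, which encode the antigens sorted against, were separated, with CAF arrays at 8.69 to 9.91 and 5.18 to 7.66, and the others at 6.02 to 8.01 and 3.73 to 5.07.

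The rises were larger than the falls. Among separated genes the median difference was 0.75 for those higher and the median size 0.42 for those lower, and 567 rises and 207 falls exceeded 1. The gap, the distance between the nearest arrays of the groups, exceeded 1 in 111 genes that were higher and in 4 that were lower. The widest gap, 2.52, and the largest difference among separated genes, 5.07 (standard error 0.52, adjusted p = 0.000222), belonged to the gene model 2310057J18Rik, singled out after its values were seen. Its normal and hyperplasia arrays lay at 3.16 to 5.62 and its CAF arrays at 8.14 to 10.91. Of the separated genes, 1526 higher and 1324 lower also passed the test, 1493 and 1222 with the term for the tied arrays and 1407 and 1092 without both. The 3 genes just inside the edge on the higher side were Pafah1b3, Npas3 and Prob1, and the 3 just outside were Ovol1, Gstt3 and Slc26a7. On the lower side these were Igsf21, Serac1 and Ssbp2, and Nxpe4, Fat4 and Nrn1l, so the edge itself falls among genes with differences of 0.15 to 1.28 in size.

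**Figure D1:**
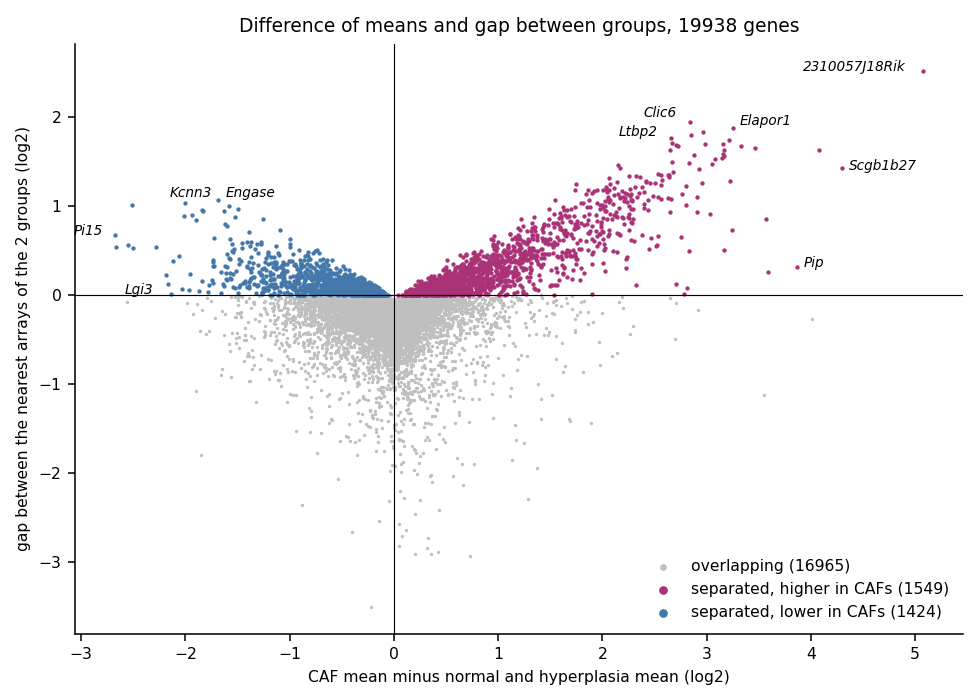
Difference between the CAF mean and the mean of normal and hyperplasia arrays (horizontal axis, log2) against the gap between the nearest arrays of the groups in the direction of the difference (vertical axis, log2), 1 point per gene. Points above 0 are separated, 1549 to the right and 1424 to the left, and the right arm reaches a gap of 2.52 while the left arm reaches 1.07.

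The same arrays set the edge for most genes. Among the 1549 genes that were higher, carcinoma D10 was the lowest CAF array in 924 (59.7%) and carcinoma D3 in 425, and carcinoma D4 was the highest in 1143 (73.8%). On the other side normal D2, a tied array, was the highest in 567 and hyperplasia D12 in 474. Among the 1424 genes that were lower, D10 was the CAF array nearest to the others in 683 (48.0%) and D4 the farthest in 768 (53.9%). Within the separated genes, advanced carcinoma less carcinoma had a median of 0.10 in the genes that were higher and -0.01 in those that were lower, hyperplasia less normal -0.05 and 0.07, and no separated gene passed the test in either. These medians are over signed differences, and single genes differed more, such as Mmp13 (2.23) and Zbtb16 (-1.49) between the CAF stages and Car6 (2.51) between hyperplasia and normal. Over all genes limma also called 0 in both, with 1124 and 841 at an unadjusted p under 0.05, and contrasts of the methods' one-way ANOVA were run for the CAF comparison alone.

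**Figure D2:**
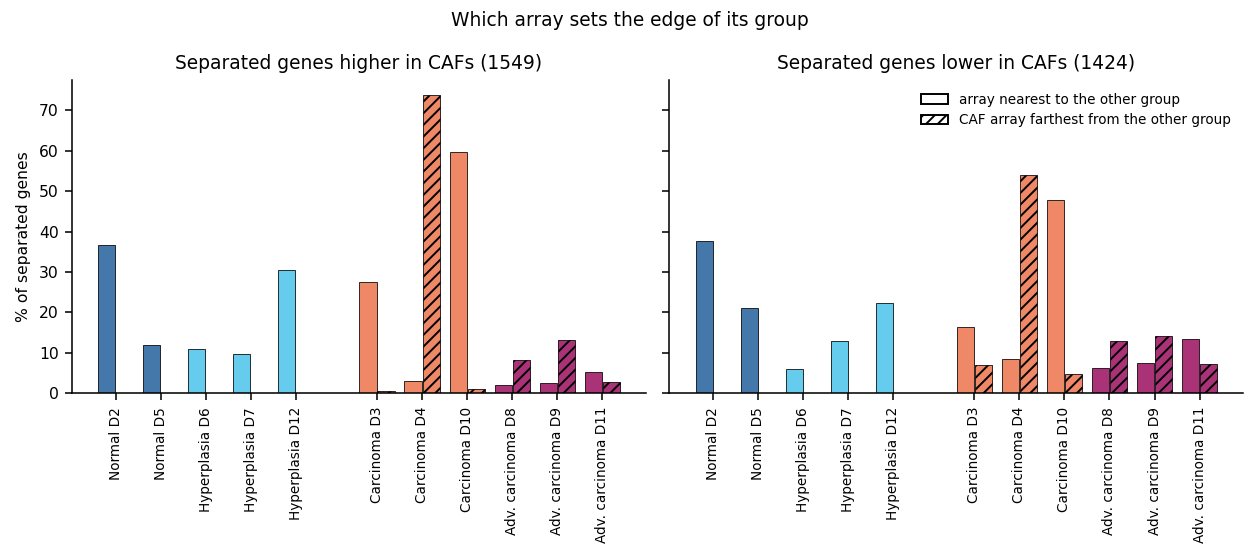
Share of separated genes (%) in which each array was the nearest of its group to the other group (plain bars) or the CAF array farthest from it (hatched bars), for genes higher in CAFs (left) and lower (right). Carcinoma D10 was most often nearest (59.7% and 48.0%) and carcinoma D4 most often farthest (73.8% and 53.9%).

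Channel, trafficking and matrix genes were among the 10 genes named for the widest gaps on the higher side. The others of these 10 were Zfp750 (1.80), a factor of epithelial differentiation, Car12 (1.74), Cdhr1 (1.71), Pigr (1.70), Celsr2 (1.69) and the mucin gene Muc15 (1.69). Clic6, of the chloride intracellular channel family, lay at 6.14 and 5.20 in normal D2 and D5 and at 5.01, 5.74 and 5.97 in hyperplasia D6, D7 and D12, and from 8.08 to 8.79 in CAFs with a median of 8.49. Elapor1, a protein of endosomes and lysosomes, lay at 4.11 to 5.59 in the others and 7.47 to 8.41 in CAFs. Smoc1, a secreted calcium-binding protein of the matrix, lay at 4.49, 4.02, 4.27, 4.55 and 4.21 in the same order of arrays and at 6.39 to 7.72 in CAFs, median 7.34. Its difference was 2.97 (standard error 0.21, adjusted p = 9.75e-05), and carcinoma D3, at 6.39, was the CAF array nearest to the others. Ltbp2, a microfibril protein of the latent TGF-beta binding family, lay at 4.62, 4.53, 4.50, 4.15 and 4.37 and in CAFs at 6.38 to 7.58, median 7.14, and rose by 2.66 (standard error 0.18, adjusted p = 9.75e-05). Outside these 10, Hey1, a repressor downstream of Notch, rose by 2.15 with the same adjusted p and a gap of 1.47. Acsl4, which couples arachidonic acid to coenzyme A, rose by 1.73, also with this adjusted p, and had a gap of 1.18. For Acsl4 the others spanned only 7.74 to 8.14, and CAFs 9.32 to 9.90.

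Secreted proteins of glands were among the largest differences, and Scgb1b27, Pip and Prol1 varied widely between CAF arrays. Scgb1b27, a secretoglobin, lay at 4.64, 4.60, 4.70, 5.39 and 5.89 in the others and at 7.32 to 11.10 in CAFs, median 9.44, a difference of 4.30 (standard error 0.65, adjusted p = 0.00118). Pip, the prolactin-induced protein, lay at 3.15, 4.42, 4.41, 4.39 and 4.54, and in CAFs at 4.85 to 10.64, median 8.36. Its gap was 0.31, since carcinoma D3 at 4.85 was barely above hyperplasia D12. Pip and the lacrimal-type protein gene Prol1 passed the test (adjusted p = 0.0187 and 0.0202) but not without the tied arrays (0.0766 and 0.0824) or by the contrast of the methods' one-way ANOVA (0.0584 and 0.0539). Saa2 and Chil1, a serum amyloid and a chitinase-like protein, had gaps of 1.63 and 1.67. The carbonic anhydrase Car12, at 4.09 to 5.89 in the others, lay at 7.64 to 8.88 in CAFs with a gap of 1.74.

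**Figure D3:**
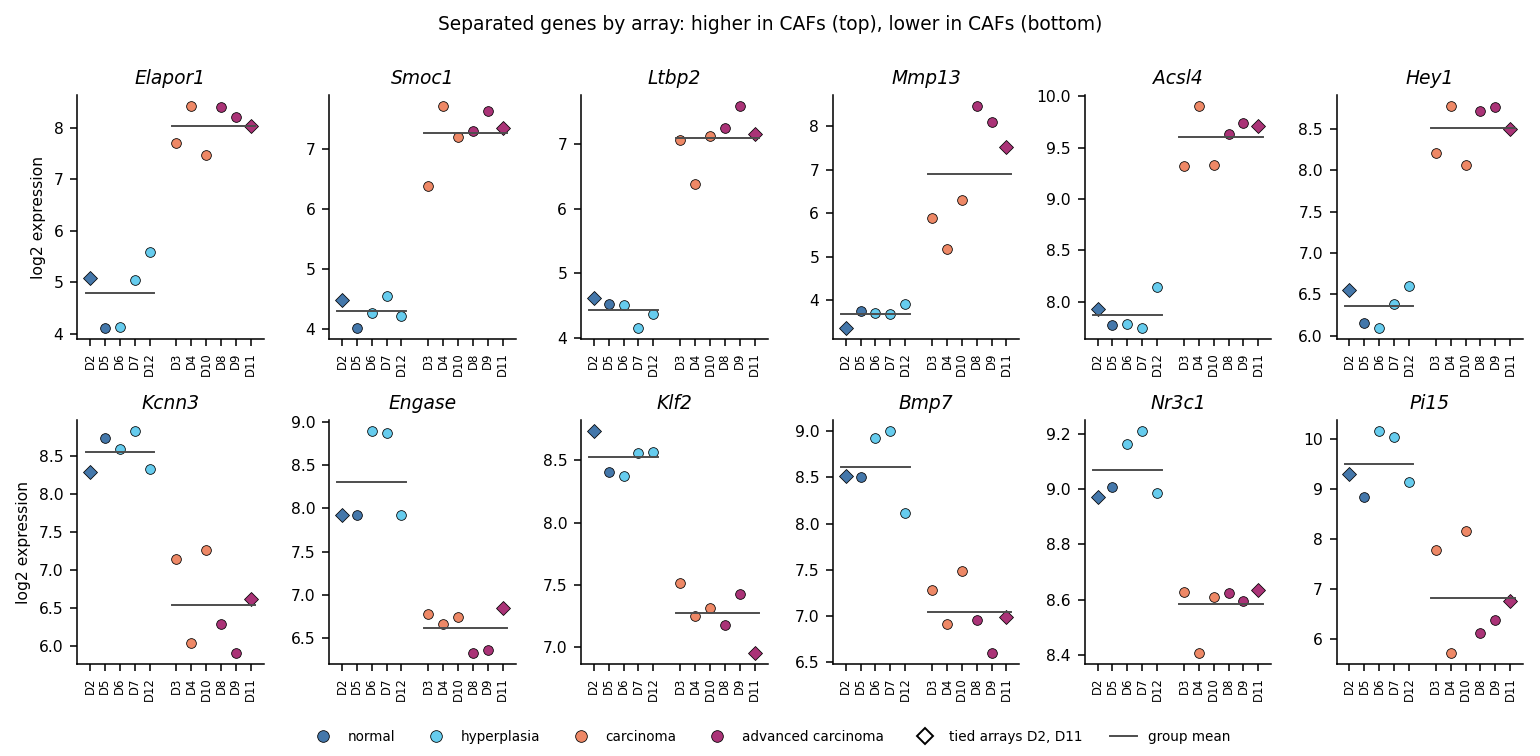
Log2 expression of 6 separated genes that were higher in CAFs (top row) and 6 that were lower (bottom row) in each of the 11 arrays, coloured by stage, with bars for group means and diamonds for the tied arrays D2 and D11. No CAF array reaches into the range of the others in any panel, and in Mmp13 and Ltbp2 carcinoma D4 is the lowest CAF array.

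Nearly all measured genes of epithelial junctions rose. Of 24 measured epithelial junction proteins 23 rose, 21 were separated and none fell, with a median difference of 1.71. Cgn (cingulin), a tight junction scaffold, lay at 4.91, 4.59, 4.60, 4.53 and 4.88 in the others and from 5.65 to 6.48 in CAFs, median 6.14 (difference 1.42, standard error 0.15, adjusted p = 0.00022). Marveld2 (tricellulin), which seals the corners where 3 cells meet, rose by 1.60 and Cldn3 by 2.21. Of 18 epithelial transcription and splicing regulators 16 rose and 12 were separated, while Foxa1 fell. Ehf, an epithelial ETS factor, lay at 7.14, 6.37, 5.48, 6.48 and 7.44 and in CAFs at 8.85 to 10.21, median 9.48. Trps1 rose by 2.57 and Tfap2c, an AP-2 factor, by 2.13. The difference in Foxa1, -1.25, did not pass without the tied arrays.

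Milk and secretory genes rose in part. Of 11 milk protein genes 9 rose and 6 were separated, with a median difference of 2.06. Wap, the whey acidic protein, lay at 4.13, 3.42, 3.75, 4.12 and 5.39, and in CAFs at 6.40 to 7.86, median 6.88. Of 16 secretoglobins, mucins and salivary-type proteins 10 rose and 8 were separated (7 rose without the tied arrays), and of 22 acute phase and antimicrobial proteins 13 rose and 10 were separated. Pigr, the receptor that carries IgA into secretions, lay at 4.26, 3.63, 3.82, 4.01 and 4.62 and in CAFs at 6.32 to 8.66, median 7.21, and Ltf (lactoferrin) rose by 2.91. Among 21 ion transport genes of secretory epithelium 9 rose and 2 fell, led by the phosphate carrier Slc34a2 (3.17), with the water channel Aqp5 at 2.26. The carbonic anhydrases split, 5 higher and 4 lower of 14, and the amino acid transporters too, 5 and 5 of 23. Over all genes 12% were higher and 12.8% lower. The glutamine carrier Slc38a3 rose by 3.46, and Slc38a4, of the same family, was among the separated genes that were lower.

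These rises ran beside those of luminal markers, but the lists share genes and are not independent. Cldn3, Cldn4, Cldn7 and Cdh1 are also on the junction list. Elf5, Ehf and Esrp1 are also on the regulator list, and Wap and Csn3 on the milk list. Of 16 luminal epithelial markers 15 rose and 13 were separated, and the mean of the list lay at 8.14 to 9.35 in CAF arrays and 5.80 to 7.34 in the others. Epcam lay at 6.02 or above in each array. Wap, also on this list, lay at 3.42 to 5.39 in the normal and hyperplasia arrays. Which luminal markers lay at background was not tested. Of 8 basal markers 6 rose and 3 were separated, at 5.93 to 7.14 against 5.01 to 6.0. In carcinoma D4, the array with the lowest fibroblast markers, all 21 separated junction genes and all 12 separated epithelial regulators had their highest CAF value. D4 was also highest in 73.8% of all 1549 separated genes that were higher. Among these were all 7 of DNA replication and repair and all 7 of fatty acid and triglyceride synthesis, but only 1 of 6 macrophage markers. The part of epithelial RNA in these results was not tested. In RNA from sorted cells, fewer cells of a type and less RNA per cell cannot be told apart.

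**Figure D4:**
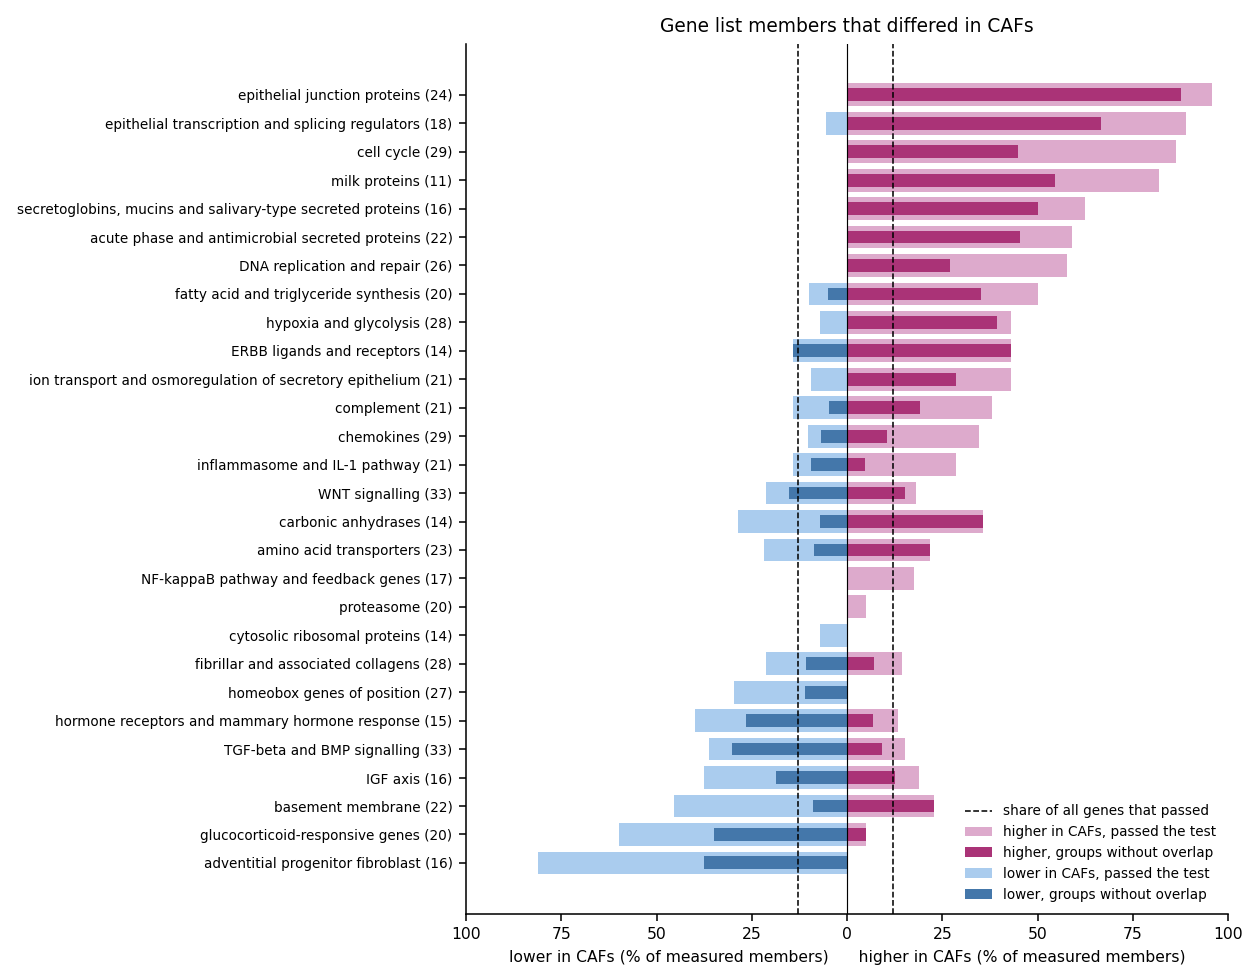
Share of the measured members of 28 gene lists (number measured in brackets) that were higher in CAFs (to the right) or lower (to the left), with light bars for members that passed the test and dark bars for those whose groups did not overlap. The dashed lines mark the shares among all genes tested, 12% higher and 12.8% lower, and junction proteins (23 of 24 rose) and adventitial progenitor genes (13 of 16 fell) lie at the ends.

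Cell cycle genes rose as a group by smaller amounts. They drive entry into mitosis and the separation of chromosomes, and their promoters are known for a short element, the cell cycle genes homology region (CHR), that keeps them silent in resting cells. Of 29 measured 25 rose, 13 were separated and none fell, with a median difference of 0.84. Plk1, a kinase of mitotic entry, lay at 6.0, 5.37, 6.17, 5.31 and 6.29 in the others and at 6.58 to 7.32 in CAFs, median 6.98. Its difference was 1.17 (standard error 0.20, adjusted p = 0.00226). The hyperplasia arrays did not stand together here, since D6 and D12 lay above D7 in Plk1, in the cyclin gene Ccna2 and in the spindle factor gene Tpx2. The list mean lay at 6.18 to 6.97 in CAFs and at 5.45 to 6.12 in the others, with carcinoma D4 highest. Without D4 and the tied arrays 14 of the 29 passed. Of 26 DNA replication and repair genes 15 rose, 7 were separated and none fell (8 rose without D4 and the tied arrays). Uhrf1, which keeps DNA methylation through replication, rose by 0.70 and Rrm1, of ribonucleotide reductase, by 0.55.

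Promoters are shown for 3 separated cell cycle genes that hold the CHR letters TTTGAA, as examples of genes that moved together. Each runs from 250 bases before to 50 after the start site on GRCm38.p6 (RefSeq), 5′ to 3′ on the gene's strand, with the match in capitals. They are Plk1 (chr7:122159185-122159484, plus strand), Cdc20 (chr4:118437294-118437593, minus strand), which activates the anaphase-promoting complex, and Ube2c (chr2:164769679-164769978, plus strand), the ubiquitin-conjugating enzyme of that complex.
Plk1: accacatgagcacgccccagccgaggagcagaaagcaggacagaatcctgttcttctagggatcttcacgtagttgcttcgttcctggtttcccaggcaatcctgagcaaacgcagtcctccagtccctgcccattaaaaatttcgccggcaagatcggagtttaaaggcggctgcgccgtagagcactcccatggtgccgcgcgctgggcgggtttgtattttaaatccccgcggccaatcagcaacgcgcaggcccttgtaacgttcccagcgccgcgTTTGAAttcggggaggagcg
Cdc20: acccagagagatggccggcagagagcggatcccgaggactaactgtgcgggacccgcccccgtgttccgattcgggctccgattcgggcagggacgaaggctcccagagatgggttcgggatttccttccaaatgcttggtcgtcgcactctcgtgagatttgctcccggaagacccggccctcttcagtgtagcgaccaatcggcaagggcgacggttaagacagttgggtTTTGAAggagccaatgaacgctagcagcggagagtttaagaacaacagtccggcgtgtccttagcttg
Ube2c: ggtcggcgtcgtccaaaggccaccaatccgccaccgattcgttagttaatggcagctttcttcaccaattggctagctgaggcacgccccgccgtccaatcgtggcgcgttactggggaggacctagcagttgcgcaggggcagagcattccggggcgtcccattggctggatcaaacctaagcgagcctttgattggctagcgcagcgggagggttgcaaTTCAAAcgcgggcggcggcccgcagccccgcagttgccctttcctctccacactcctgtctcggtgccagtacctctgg
Cdc20 rose by 0.84 and Ube2c by 0.89, and both were chosen for their match after values were seen. Of the 13 separated cell cycle genes 11 had exactly 1 promoter in the RefSeq table, and 10 of these held TTTGAA on either strand. Over the whole cell cycle list 15 of 21 promoters (71.4%) held it, against 15.7% of 12935 promoters of all genes tested. In all separated genes the share was 13.6% for those higher and 10.9% for those lower. The letters CCAAT stood in 17 of the 21 (81.0%), against 38.7% of all. These are matches of letters, not sites of binding.

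Genes of glycolysis and its oxygen-dependent control rose in part. Cells that lack oxygen stabilise hypoxia-inducible factors, which bind a core of the letters ACGTG and raise glucose uptake and glycolysis. Of 28 measured genes 12 rose, 11 were separated and 2 fell (none fell with the term for the tied arrays). Slc2a1, the glucose carrier GLUT1, lay at 8.25, 8.00, 8.19, 7.95 and 8.33 and in CAFs at 9.09 to 10.07, median 9.43, a difference of 1.35 (standard error 0.16, adjusted p = 0.0004). The phosphofructokinase gene Pfkl rose by 1.86 and the pyruvate kinase gene Pkm by 0.86. Pgk1 rose by 0.63 and the prolyl hydroxylase gene Egln3 by 2.29, the latter from 4.85 ± 0.54 (SD over 5 arrays) to 7.14 ± 0.76 (SD over 6 arrays). Vegfa, Adm, Hk2, Bnip3 and Hif1a, with differences of -0.18, -0.59, 0.39, 0.21 and 0.02, were among the 14 members that did not pass. Slc16a1, the lactate and pyruvate carrier MCT1, fell by 0.70 on the log2 scale and was separated.

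The hypoxia core is marked in capitals in the promoters of 3 of these genes, again 250 bases before to 50 after the start on GRCm38.p6, namely Slc2a1 (chr4:119108495-119108794, plus strand), Pgk1 (chrX:106186850-106187149, plus strand) and Egln3 (chr12:54203825-54204124, minus strand).
Slc2a1: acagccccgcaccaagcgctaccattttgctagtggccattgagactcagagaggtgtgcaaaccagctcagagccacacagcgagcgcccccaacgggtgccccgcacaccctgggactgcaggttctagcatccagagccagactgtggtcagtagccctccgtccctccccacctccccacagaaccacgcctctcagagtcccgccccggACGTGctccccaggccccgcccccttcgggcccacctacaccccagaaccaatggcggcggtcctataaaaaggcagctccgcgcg
Pgk1: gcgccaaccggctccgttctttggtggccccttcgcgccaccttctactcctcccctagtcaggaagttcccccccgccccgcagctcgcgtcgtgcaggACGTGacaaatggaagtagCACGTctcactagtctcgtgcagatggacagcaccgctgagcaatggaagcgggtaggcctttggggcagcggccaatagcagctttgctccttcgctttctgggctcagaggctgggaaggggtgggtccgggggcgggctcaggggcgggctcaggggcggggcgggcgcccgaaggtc
Egln3: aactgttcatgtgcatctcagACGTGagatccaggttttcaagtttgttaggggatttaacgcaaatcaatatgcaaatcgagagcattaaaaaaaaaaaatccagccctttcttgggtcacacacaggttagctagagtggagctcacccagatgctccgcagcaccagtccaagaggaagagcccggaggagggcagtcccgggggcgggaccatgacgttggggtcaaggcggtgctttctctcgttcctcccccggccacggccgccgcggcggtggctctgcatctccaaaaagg
Pgk1 held 2 matches and the other promoters 1 each. ACGTG, which the E-box CACGTG contains, stood in 11 of the 18 promoters of this list (61.1%), against 21.4% of all promoters. It stood in 4 of the 6 separated members with 1 promoter, the 3 shown among them, and was absent from Pfkl and Tpi1. Among separated genes it stood in 23.8% of promoters of those higher and 20.2% of those lower, near the share of all.

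Lipid synthesis genes also rose. Of 20 genes of fatty acid and triglyceride synthesis 10 rose, 7 were separated and 2 fell (7 rose without the tied arrays). Srebf1, the factor that turns on lipid synthesis, lay at 6.87, 6.69, 6.54, 6.89 and 7.24, and in CAFs at 8.02 to 9.17, median 8.91, with a difference of 1.90 (standard error 0.20, adjusted p = 0.000233). Me1, which supplies NADPH for this synthesis, rose by 1.43. Thrsp, a lipogenic factor of fat and milk-forming cells, rose by 3.16 with a range of 3.40 to 6.03 among the others. Of 16 fatty acid oxidation genes 2 were higher and 2 lower, near the 12% and 12.8% of all genes. Cpt2 and Ppara were separated and lower, by 0.43 and 0.28 in size. Asns, the asparagine synthetase, rose by 1.03 and was 1 of 6 genes of one-carbon, serine and nucleotide metabolism that rose among 19. Of 14 cytosolic ribosomal protein genes 1 fell, of 20 proteasome genes 1 rose, and no member of either list was separated.

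Growth factor genes moved in both directions. ERBB receptors and ligands are the main epidermal growth factor system of the breast, and of 14 genes 6 rose, 2 fell and all 8 were separated. Nrg1, a ligand of ERBB3 and ERBB4, lay at 4.72, 4.78, 4.64, 4.53 and 4.61 in the others and at 5.19 to 6.55 in CAFs, median 6.08 (difference 1.36, standard error 0.21, adjusted p = 0.00121). The receptor genes Erbb3 and Erbb4 rose by 2.0 and 1.05 and the ligand genes Hbegf, Nrg2 and Egf by 1.0, 0.68 and 0.50. Egfr and its feedback inhibitor Errfi1 were lower, by 0.77 and 0.61 in size. Fgf10, the fibroblast growth factor that drives branching of mammary ducts, lay at 9.89, 10.21, 11.08, 10.49 and 10.41, and in CAFs at 7.34 to 9.84, median 8.46. Its difference was -1.86 (adjusted p = 0.0103), with a gap of 0.04, and by the contrast of the methods' ANOVA it did not pass (0.0511). Fgf18 was lower by 1.52 and Igf2 by 1.74 in size, and of 16 IGF axis genes 3 rose and 6 fell. The WNT list split into 6 higher and 7 lower of 33 (5 and 5 without the tied arrays). In it Lgr6, an R-spondin receptor, was at 2.33 and Wnt5a at -0.89. Over all genes 12% were higher and 12.8% lower, and the WNT counts and the IGF axis rises lie not far above these shares.

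BMP ligands and their regulators fell. In the TGF-beta family, BMPs and TGF-betas act through separate receptors and SMAD proteins, and fibroblasts are both a source and a target. Of 33 genes 5 rose and 12 fell, 3 and 10 of them separated. Bmp7 lay at 8.52, 8.51, 8.93, 9.0 and 8.12 in the others and at 6.60 to 7.49 in CAFs, median 6.97, and fell by 1.58 on the log2 scale (standard error 0.18, adjusted p = 0.000338). Bmp2 lay at 5.30, 5.70, 5.27, 5.66 and 5.52, and from 4.51 to 4.78 in CAFs, and Bmp4, Bmp5 and Bmp6 were separated in the same direction, as were the antagonists Chrdl1 and Fst. Tgfbi, a matrix protein induced by TGF-beta, fell by 1.11. Tgfb3 rose, from 8.35 to 8.75 in the others to 9.38 to 9.82 in CAFs, and the activin subunit Inhbb and Id2 were the other separated members that were higher.

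Adventitial progenitor genes mark the fibroblasts around vessels and ducts, thought of as a reserve for other fibroblasts, and they made up the list with the largest share of falls. Of 16 measured 13 fell, 6 were separated (Ackr3, Bmp7, Dact2, Opcml, Pi16 and Wnt2) and none rose, with a median of -1.09. Ackr3, a scavenger receptor for the chemokine CXCL12, lay at 8.44, 8.81, 8.98, 9.16 and 8.15 and in CAFs at 6.71 to 8.01, median 7.20. Opcml, a cell adhesion protein, fell by 1.61, and Dpp4 and Cd55, which mark this state in other tissues, fell but overlapped. The list mean lay at 7.96 in carcinoma D4 and at 8.52 to 9.38 in the other CAF arrays, and at 9.28 to 10.02 in the others, so carcinoma D10 (9.38) and hyperplasia D12 (9.28) crossed. Without D4 and the tied arrays 11 of the 16 fell and 1 rose. General fibroblast markers differed less. Of 15, 1 fell (Cd34) and none was separated, with a median of -0.49, while without D4 and the tied arrays 8 fell with a median of -0.30.

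Glucocorticoid-responsive genes were lower. Their receptor, Nr3c1, lay at 8.97, 9.01, 9.16, 9.21 and 8.99 in the others and at 8.41 to 8.64 in CAFs, median 8.62, a difference of -0.48 (standard error 0.06, adjusted p = 0.000502). Of 20 genes 12 fell, 7 were separated and 1 rose. Zbtb16, a zinc finger factor, lay at 9.02, 9.72, 9.24, 9.27 and 8.07 and in CAFs at 5.78 to 7.94, with only 0.12 between carcinoma D3 and hyperplasia D12. Cdkn1c, the cell cycle inhibitor p57, fell by 1.46, and Sult1a1, a sulfotransferase, fell by 1.21, with Klf9, Hif3a, Dusp1 and Errfi1 as the other separated members. Lcn2, which is also an acute phase protein, was the member that rose, by 2.0. The letters ACANNNTGT stood in 2 of 12 promoters of this list (16.7%), against 5.71% of all, and in 1 of the 5 separated members with 1 promoter, which was Lcn2, the gene that rose. Without the tied arrays 9 of the 20 fell, and without D4 as well 8.

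Of 15 genes of hormone receptors and the mammary hormone response, Nr3c1 among them, 6 fell and 2 rose. Cited1, a coactivator that works with the oestrogen receptor, lay at 7.68, 7.13, 8.18, 7.34 and 7.57 and in CAFs at 5.59 to 6.67, median 5.79, and Esr1 and Thra, the receptors for oestrogen and thyroid hormone, were separated too. Vdr, the vitamin D receptor, went the other way, from 5.04 to 6.25 in the others to 7.58 to 8.52 in CAFs, a rise of 2.25. Genes of steroid metabolism were among the largest falls. Akr1c18, which inactivates progesterone, lay at 11.26, 10.46, 11.61, 11.73 and 10.65 and in CAFs at 7.86 to 9.89, median 8.25, a difference of -2.55 (standard error 0.39, adjusted p = 0.00131). Akr1c14, of the same family, fell by 2.19.

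**Figure D5:**
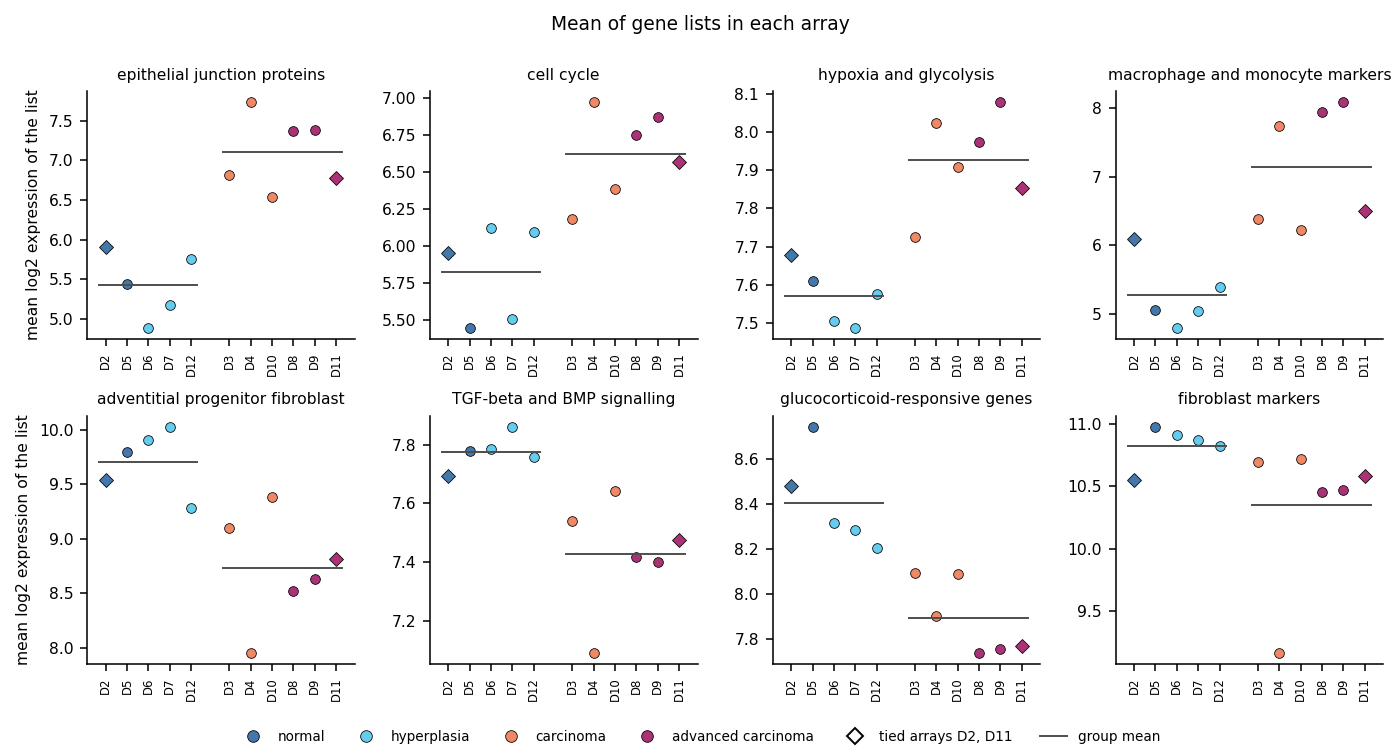
Mean log2 expression of 8 gene lists in each array, coloured by stage, with bars for group means and diamonds for the tied arrays. Junction, cell cycle, hypoxia, macrophage, TGF-beta and BMP, and glucocorticoid lists keep the groups apart, whereas adventitial and fibroblast lists overlap. The margin is narrow in 3 of them. The nearest CAF and other arrays lie at 6.182 and 6.124 (cell cycle), 7.724 and 7.678 (hypoxia), and 7.642 and 7.695 (TGF-beta and BMP). Carcinoma D4 is lowest in the fibroblast list at 9.17.

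Other falls were in single genes of several kinds. Pi15, a secreted peptidase inhibitor, lay at 9.31, 8.84, 10.16, 10.04 and 9.14 and in CAFs at 5.73 to 8.16, median 6.58, a difference of -2.67 (standard error 0.44, adjusted p = 0.00197), matched in size by Smpd3, a neutral sphingomyelinase. The widest gap on this side, 1.07, was in Engase, an enzyme that removes sugar chains from proteins, at 7.92, 7.92, 8.89, 8.87 and 7.92 against 6.32 to 6.85. Kcnn3, a calcium-activated potassium channel, and Lgi1, a secreted protein of synapses, had gaps of 1.03 and 1.02. Klf2, a Krüppel-like factor, was among the tightest, at 8.73, 8.41, 8.37, 8.56 and 8.56 against 6.95 to 7.51 (difference -1.26, standard error 0.10, adjusted p = 0.000137). Irf4, a factor best known from lymphocytes, lay at 7.93 to 8.23 in the others and at 5.37 to 7.04 in CAFs. Kera (keratocan), a proteoglycan of the matrix, fell by 2.50 and Hoxc10, a homeobox gene of the hind body, by 1.34. Of 27 homeobox genes of position 8 fell and none rose, and Hoxb4, 1 of the 3 separated, did not pass without the tied arrays (0.0508).

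Matrix genes moved in both directions. Of 28 fibrillar and associated collagens 4 rose and 6 fell, with a median difference of -0.58. Over all genes 12% were higher and 12.8% lower, so these counts lie not far above the shares of all genes. Col1a1, Col1a2 and Col3a1 had differences of -0.57, -0.68 and -0.77 that did not pass. Without D4 and the tied arrays 16 fell, so the count rests on the arrays used. Col11a1, a minor fibrillar collagen, lay at 4.74, 4.48, 4.97, 4.80 and 5.12 and in CAFs at 5.73 to 6.64, median 6.32, a rise of 1.43 (standard error 0.16, adjusted p = 0.000292). Of 22 basement membrane genes 5 rose and 10 fell, the rises in Npnt (3.08), Lamb3 (1.64) and Col4a6 (0.97) among them, while the laminin chain Lamb1 was separated and lower. Of 26 matrix proteases 4 rose and 5 fell, also not far above the shares of all genes. Mmp13, a collagenase, lay at 3.36, 3.75, 3.70, 3.68 and 3.90 and in CAFs at 5.18 to 8.45, median 6.91, with all 3 advanced carcinoma arrays (7.51 to 8.45) above the 3 of carcinoma (5.18 to 6.31), a difference of 2.23 that did not pass the test across all genes. Adamts8 rose by 1.13 and Chad (chondroadherin) by 2.14.

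Carcinoma D4 was the highest CAF array in 1143 of the 1549 genes, but in 47 it was the lowest, beside 32 genes for advanced carcinoma D8, 39 for D9 and 82 for D11. Of the 567 genes with a difference over 1, D4 was the lowest in 14. They include Mmp13, Ltbp2, Col11a1, Nrg1 and Adamts8, in which D4 lay at 5.18, 6.38, 5.73, 5.19 and 4.90 and the next CAF array at 5.88, 7.07, 6.02, 5.77 and 5.39. Of the others, which were singled out for this after their values were seen, Aldh1a2, the enzyme that makes retinoic acid, had D4 at 4.39 and the next at 5.35, Nkd2, an inhibitor of WNT signals, 6.80 and 7.77, and Chl1, a neural adhesion protein, 6.13 and 6.49. Pmepa1, a feedback inhibitor of TGF-beta signals, was also lowest in D4, at 10.90. No separated gene of the luminal, basal, junction, milk or macrophage lists was lowest in D4. The same held for most lists, among them cell cycle, hypoxia and chemokines. Over all separated genes that were higher the share was only 3.03%.

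Macrophage and other immune genes differed as well. Of 14 macrophage and monocyte markers 13 rose and 6 were separated, and the list mean lay at 6.22 to 8.09 in CAFs and 4.80 to 6.09 in the others. C3ar1, a complement receptor of myeloid cells, lay at 4.84, 3.57, 3.58, 3.87 and 4.12 and in CAFs at 5.75 to 8.15, median 7.12, a rise of 3.04, and the metalloelastase gene Mmp12 rose by 1.82. In these and in Lyz2, advanced carcinoma D8 and D9 and carcinoma D4 were the 3 highest arrays. Among 29 chemokines 10 rose and 3 fell, though 3 and 2 were separated, Cx3cl1 (1.62), Ccl8 (1.40) and Ccl25 higher and Ccl5 (-1.66) and Cxcl13 lower. Of 21 genes of the inflammasome and the IL-1 pathway 6 rose and 3 fell. P2rx7, the ATP receptor that opens upstream of the inflammasome, lay at 6.73, 6.87, 5.86, 5.84 and 6.70 and in CAFs at 7.37 to 7.80 (difference 1.20, standard error 0.20, adjusted p = 0.00201), whereas Il18 fell by 1.26 and the decoy receptor Il1r2 fell by 2.12. Nlrp3, Il1b, Il1a, Casp1 and Il1rn rose but overlapped between groups, and of the 6 rises 5 passed with the term for the tied arrays and 4 without both. Nlrp3 was close to the threshold (adjusted p = 0.0461). Of 17 NF-kappaB pathway and feedback genes 3 rose and 1 with the term for the tied arrays, and none was separated. Over all genes 12% were higher. Osmr, the oncostatin M receptor, rose by 1.14 and Il6ra fell by 1.0. The part of macrophage RNA in these results was not tested.

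Lymphocyte and adipocyte markers went down. Of 9 T and NK cell markers 4 fell and of 5 B cell markers 3, and without the tied arrays none of either list passed. List means were 5.23 to 6.71 in CAFs and 5.96 to 8.32 in the others for T and NK cells, with hyperplasia D12 and normal D2 highest, and 5.67 to 7.11 against 6.63 to 8.38 for B cells. The activation marker Cd69, which lymphocytes carry, fell by 1.97 with a gap of 0.06. Of 11 adipocyte markers 6 fell and 1 rose, with list means of 6.02 to 6.45 against 6.42 to 7.12. Pparg, the master factor of fat cells, lay at 7.63, 7.89, 8.22, 7.82 and 7.97 and in CAFs at 6.46 to 7.36, median 6.85 (difference -1.02, standard error 0.17, adjusted p = 0.00211), and Lpl and Fabp4 were separated in the same way. The part of lymphocyte and fat cell RNA in these values was not tested.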

How the data were processed

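Fibroblasts sorted from mammary glands were profiled on 11 Affymetrix Mouse Gene 1.0 ST arrays. The deposited values are log2 intensities that the authors normalised together by RMA in Partek Genomics Suite 6.5. The genome build behind the probe sets is not given in the sources used here. Array number limits precision.

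Of 35399 probe sets 21789 had 1 symbol in the platform annotation, 1621 several and 11989 none. The 19938 genes were each represented by 1 probe set, for 999 of them the brightest of several. The 6 CAF arrays were compared with the other 5 by limma 3.58.1 in R 4.3.3 (lmFit and eBayes, no covariate, 9 residual degrees of freedom) with Benjamini-Hochberg adjustment over all genes, and called at 0.05. A gene was separated when the groups did not overlap. The script was tested on simulated data. Other steps used Python 3.11.15 with pandas 2.3.3, numpy 2.4.6 and matplotlib 3.10.9.

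Named genes were, among separated and called genes, the 20 with the largest difference and the 10 with the widest gap in each direction. In each of 69 lists (1270 symbols, 1192 measured) the 3 separated members with the smallest p were named, called or not. Ptger1 was named by this rule and did not pass. The sorted antigens were named too, and in each direction the 3 called genes just inside and the 3 just outside separation. Predicted genes, small RNAs, chemosensory receptors and antigen receptor segments were left aside, except in the lists and antigens. Any other gene named was chosen after its values were seen. The grouping, lists and tests were chosen with earlier results of these data known. Motifs were searched on both strands of 300-base RefSeq promoters in genes with exactly 1 promoter. Alternatives covered scaling, the dim-gene filter, probe set choice, the tied arrays, the fit, the methods' one-way ANOVA and threshold, and each array left out. Replicates are cohorts of mice.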

Additional observations from a re-analysis of the deposited data

Results flagged for a closer look

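In 14 of 442 groups of arrays (3.17%) the highest or lowest array lay far from the rest of its group. Chance gives about 1 in 20 in unselected groups. Most genes looked at here were named because their groups did not overlap, so that rate is no reference for them. Carcinoma D4 was the array in 7 of them. It was low among CAFs in Pdgfra (9.209, the other CAF arrays at 10.5 to 11.01), in the mean of the fibroblast list (9.166 against 10.45 to 10.72), in Fbln5, an elastic fibre gene (8.127), in the glucocorticoid receptor gene Nr3c1 (8.408), in the circadian gene Clock (8.025) and in Hoxb4 (4.794). It was high in the mean of the erythroid list (4.769 against 4.407 to 4.496). Only 2 of the 5 erythroid markers were measured, and these means lie below the array medians of 5.28 to 5.39. Normal D2, a tied array, was low in Pip (3.146 against 4.394 to 4.541) and high in Mmp12 (4.81 against 3.777 to 3.899) and Prob1 (4.263). Advanced carcinoma D11, the other tied array, was low in Itih2 (4.578) and in the mean of the mast cell list (4.482 against 5.1 to 5.44). Hyperplasia D12 was low in Cyp26a1, which degrades retinoic acid (3.431), and in Sema6a (6.932).

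Among the 13610 probe sets without 1 symbol, which no comparison above used, 339 (2.49%) were separated and higher in CAFs and 261 (1.92%) separated and lower.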

How the results depend on the processing

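Removing dim genes left 1527 genes higher in CAFs, 949 separated higher and 906 separated lower. The methods' threshold (unadjusted p under 0.05 and a fold over 1.5) gave 1312 higher and 1114 lower, and an adjusted p with a fold over 2 gave 671 and 353. With arrays centred on their median 5114 genes were lower and 2290 separated lower, and Ptger1 changed sign (-0.008589). The contrast of the methods' ANOVA called 1486 genes lower. A gap over 0.5 kept 346 higher and 42 lower genes. Without both tied arrays 2196 genes were separated lower, and without carcinoma D4 as well, chosen after seeing the data, 2490. With fewer arrays separation is easier by construction, and for the other counts the cause was not tested. Leaving out 1 array gave 1514 to 2203 genes separated lower, the highest count without carcinoma D10. Of 205 named genes 177 kept sign and call in each of the 22 alternatives that gave them a value and 28 did not (38 had none with dim genes removed), among them Pip, Prol1, Fgf10, Pdgfd, Cd69 and Hoxb4. Pdgfra, not called with all arrays, passed without carcinoma D4 (-0.40, adjusted p = 0.0412). No paired analysis was possible because the groups share no replicate numbers. Which dim genes lie at background was not tested.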

Other observations

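Other lists are given here beside the 12% of all genes that were higher and the 12.8% lower. Some of their counts lie near or below these shares. Of 21 complement genes 8 rose and 3 fell, and of 21 lysosome and phagocyte genes 6 rose and 2 fell. Of 16 interferon response genes 4 fell and none rose. Of 24 glycosyltransferases 7 rose, 5 of them separated, and 3 fell. Of 28 axon guidance and neurotrophic genes 5 rose and 7 fell, of 29 glutathione and xenobiotic genes 4 rose and 6 fell, and of 22 Notch and Hedgehog genes 4 rose and 6 fell. Of 26 genes of the unfolded protein response 3 rose and 2 fell, below both shares. Pan-leukocyte markers gave no call among 10, with list means overlapping between groups.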
